A study of Mus musculus with 54 samples.

Results

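Activity-regulated immediate early genes were followed on every array of a microarray study of 6 inbred mouse strains. The members were the 10 genes Fos, Fosb, Junb, Egr1, Egr2, Arc, Nr4a1, Nr4a3, Ier2 and Dusp1, of 18193 genes named on the array, and they were found by taking all probe sets that the platform annotation gives to these symbols. There were 13 such probe sets of 45101, and the one with the highest mean over all arrays stood for its gene. All mice were male and were killed at postnatal day 60, and their strains were C57BL6/J, its relatives C57BL10/J, C57L/J and C57BLKS/J, and the more distant BalbC/J and C3H HeJ. Hippocampus, striatum and brainstem were taken whole. Each strain and tissue had 3 arrays, each made from a pool of 3 mice, giving 18 arrays per tissue and 54 in all. In each strain and tissue 1 array held mice that had gone through prepulse inhibition sessions, in which a soft sound before a loud one dampens the startle, and 2 arrays held untested mice. Testing fell at postnatal day 50, every other day over 5 days, with startle sounds of 120 dB after prepulses of 75 or 80 dB, and 6 of the 12 mice of a strain were tested. With 6 mice of each kind per strain, the pools of different tissues must share mice. The labels name no introduced mutation and no drug in any group.

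Immediate early genes are transcribed within minutes of a rise in calcium or growth factor signalling, with no need for new protein, and their transcripts are short-lived. In neurons their level is used as a readout of recent activity. Fos, Fosb and Junb encode subunits of the AP-1 transcription factor, Egr1 and Egr2 encode zinc finger factors, and Nr4a1 and Nr4a3 encode orphan nuclear receptors. Arc encodes a protein of dendrites and synapses that takes part in the removal of AMPA receptors, Dusp1 encodes a phosphatase that switches off MAP kinases, and Ier2 encodes a nuclear protein of less settled role. Many of these promoters hold binding sites for CREB (the cyclic AMP response element, CRE) and for serum response factor (the CArG box).

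Promoter sequence was read from RefSeq (build GRCm38.p6) for 7 of the 10 members. Arc, Egr1 and Ier2 had no entry. Both strands of the 250 bases before each transcription start were searched for 4 motifs: the CRE core TGACG, the full CRE TGACGTCA (which contains the core on both strands), the CArG box, and the site of EGR proteins, GCGGGGGCG. The core was present in at least 1 window of each of the 7 genes, and in 17.8% of all 32851 mouse promoter windows of this length. It occurred 4 times in the window of Nr4a1 and in that of Nr4a3, 3 times in Dusp1, 2 times in Fos, and once each in Fosb and Junb. Egr2 had 5 windows, of which 3 overlapping ones held the core 2 times each, and those 3 and another 1 held a CArG box, which 1.47% of all windows held. The full CRE was found only in Dusp1, 143 bases before the start, and in 1.55% of all windows. Fosb and Nr4a1 each held 1 EGR site, as 2.57% of all windows did. A match is a string of letters and not a site of binding. The windows of 4 members whose levels moved together from array to array are shown, 5' to 3', with the core in capitals, and with the full CRE of Dusp1 in capitals too. They lie at chr12:85473640-85473889 on the plus strand for Fos, chr8:84978749-84978998 on the minus strand for Junb, chr15:101266596-101266845 on the plus strand for Nr4a1 (inside the annotated gene, whose first start lies further upstream), and chr17:26508473-26508722 on the minus strand for Dusp1.
Fos: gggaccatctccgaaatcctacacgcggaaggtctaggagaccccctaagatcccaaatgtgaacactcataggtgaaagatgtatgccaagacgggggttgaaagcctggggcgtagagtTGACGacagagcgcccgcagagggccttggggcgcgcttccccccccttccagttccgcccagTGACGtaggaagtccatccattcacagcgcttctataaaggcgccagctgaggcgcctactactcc
Junb: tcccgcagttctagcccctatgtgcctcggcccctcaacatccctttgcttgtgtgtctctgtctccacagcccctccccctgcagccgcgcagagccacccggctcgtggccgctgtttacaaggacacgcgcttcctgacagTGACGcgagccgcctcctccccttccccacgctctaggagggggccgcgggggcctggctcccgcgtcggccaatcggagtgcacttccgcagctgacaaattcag
Nr4a1: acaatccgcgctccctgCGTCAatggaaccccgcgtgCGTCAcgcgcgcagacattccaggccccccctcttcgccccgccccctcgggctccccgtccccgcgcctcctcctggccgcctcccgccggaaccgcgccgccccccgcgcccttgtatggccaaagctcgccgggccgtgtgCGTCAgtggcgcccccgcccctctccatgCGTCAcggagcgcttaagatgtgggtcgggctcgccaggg
Dusp1: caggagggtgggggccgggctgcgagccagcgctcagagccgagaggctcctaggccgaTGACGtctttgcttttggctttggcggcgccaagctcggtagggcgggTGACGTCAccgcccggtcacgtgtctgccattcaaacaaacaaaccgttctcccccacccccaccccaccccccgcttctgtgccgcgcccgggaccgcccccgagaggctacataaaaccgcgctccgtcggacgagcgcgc

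The values were log2 expression levels, as deposited. Array medians lay at 4.53 to 4.72 (hippocampus), 4.17 to 4.31 (striatum) and 4.43 to 4.57 (brainstem). The lowest value of an array differed between tissues (-0.20 to -0.15, -0.02 to 0.03 and -0.12 to -0.08), so a level set against that of another tissue carries a difference of scale. Tests took the genes that exceeded their array's 40th percentile (3.12 to 3.47) on 3 or more arrays of the tissue; 9, 8 and 9 members did so in hippocampus, striatum and brainstem. Of the defining markers named here, all but Chat and Tdo2 were high in their own tissue, and some were high in another too. In hippocampus, striatum and brainstem, the hippocampal gene Prox1 averaged 8.99, 4.21 and 7.17. The striatal gene Drd2 averaged 2.47, 12.51 and 7.01, and the brainstem gene Slc6a5 2.10, 2.13 and 12.15. The hippocampal marker Wfs1 was less distinct (11.18, 10.84 and 9.13), as was the striatal marker Penk (9.56, 14.95 and 12.39). The hippocampal marker Tdo2 reached only 4.50 in hippocampus. The brainstem marker Chat was near the floor in brainstem too (1.62). For all arrays except the tested C57L/J one of striatum, the closest array by correlation was of the same strain. The second untested C3H HeJ brainstem array stood apart by its cerebellar markers (all 8 above the filter), which averaged 4.24 above the median of the brainstem arrays while brainstem markers lay at -1.16.

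Junb, Egr1, Egr2, Arc, Nr4a1 and Nr4a3 had higher means in both forebrain tissues than in brainstem, Fos, Dusp1 and Ier2 did not, and Fosb was dim in all 3 tissues (plot of levels by tissue). Probe sets differ in brightness, so levels are compared within a gene and not between genes. Egr1 averaged 11.89 ± 0.22 (SD, n = 18) in hippocampus, 13.05 ± 0.23 in striatum and 9.29 ± 0.38 in brainstem.  Striatum thus held the highest Egr1, and its lowest striatal array (12.58) lay above the highest hippocampal one (12.44).

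**Figure D1:**
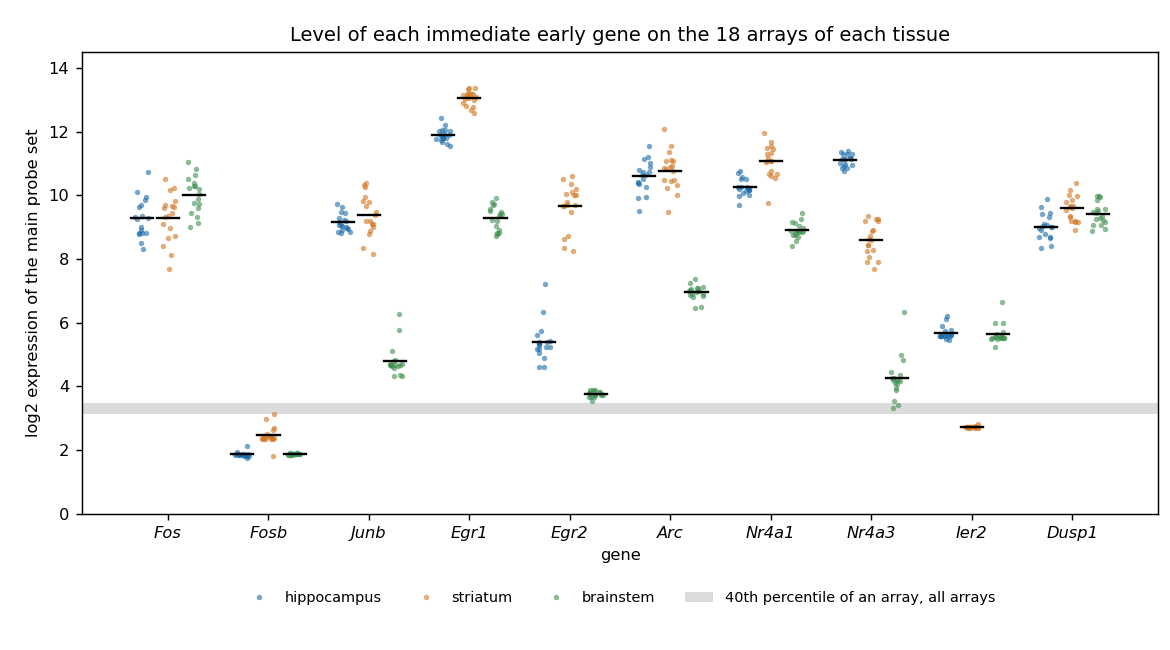
Log2 expression of the main probe set of each of the 10 genes on the 18 arrays of hippocampus, striatum and brainstem; each point is 1 array, black bars are means, and the grey band spans the 40th percentiles of the arrays (3.12 to 3.47). Junb, Egr2, Arc and Nr4a3 sat lowest in brainstem, Fos was highest there, and Fosb lay below the band in all 3 tissues.

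Among the AP-1 genes, Fos ranged from 8.32 to 10.72 in hippocampus (median 9.26), in striatum from 7.68 to 10.52 (9.39), and in brainstem from 9.01 to 11.03 (10.13). Its ranges overlapped in all 3 tissues. Junb ranged from 8.82 to 9.73 in hippocampus (median 9.08), in striatum from 8.15 to 10.37 (9.28), and in brainstem from 4.32 to 6.26 (4.67). The brainstem arrays of Junb lay below every array of hippocampus and striatum. Fosb stayed at 1.74 to 3.12 on all arrays and passed the filter in no tissue, so no test of Fosb was made and its values show only that its probe set was dim.

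Egr2 had the widest spread over tissues of the zinc finger factors. It ranged from 4.60 to 7.21 in hippocampus (median 5.31), in striatum from 8.25 to 10.61 (9.74), and in brainstem from 3.53 to 3.89 (3.75), with no overlap between any of the tissues. Its other probe set gave the same order, with means of 3.96, 8.96 and 2.70. The brainstem values of Egr2 lay just above the filter and barely varied.

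Nr4a3 was higher in hippocampus than in striatum. It ranged from 10.77 to 11.40 in hippocampus (median 11.13), in striatum from 7.67 to 9.35 (8.61), and in brainstem from 3.33 to 6.32 (4.20), again without overlap. Its 2 other probe sets stayed between 1.73 and 2.52 on all arrays and were dim in every tissue. Nr4a1, its close relative, ranged from 9.70 to 10.75 in hippocampus (median 10.21), in striatum from 9.76 to 11.95 (11.08), and in brainstem from 8.41 to 9.44 (8.87). Brainstem held the lowest Nr4a1 without overlap, while hippocampus and striatum overlapped.

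Arc ranged from 9.51 to 11.56 in hippocampus (median 10.64), in striatum from 9.47 to 12.08 (10.83), and in brainstem from 6.46 to 7.38 (7.0). Dusp1 differed least between tissues, at 8.34 to 9.87 in hippocampus (median 9.0), 8.90 to 10.39 in striatum (9.61) and 8.87 to 9.99 in brainstem (9.39). Ier2 was dim: 5.46 to 6.21 in hippocampus, 5.23 to 6.66 in brainstem, and 2.68 to 2.83 in striatum, where it did not pass the filter.

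Testing these tissue differences in limma over all 54 arrays, 6 of 9 members tested differed between hippocampus and striatum, 8 of 9 between hippocampus and brainstem and 8 of 9 between striatum and brainstem, at an adjusted p under 0.05. Of all genes tested 87.1%, 85.5% and 89.2% did, so such counts are ordinary here. Ier2 is among the 9 and entered through the tissues where it is high, since none of its 18 striatum arrays exceeded the filter. Over the members that passed the filter in both tissues compared, the counts were 5 of 8, 8 of 9 and 7 of 8. The tissues share mice and the fit took arrays as independent, so these p-values are not exact. Over all genes the median difference was 0.24 for hippocampus minus striatum and -0.31 for striatum minus brainstem, and each value is read against it. Egr2 differed by -4.26 ± 0.14 (log2 hippocampus minus striatum, SE) (a 19.2-fold difference, limma adjusted p = 6.72e-27), and Egr1, Nr4a1 and Dusp1 were lower too, at -1.16 ± 0.07, -0.80 ± 0.10 and -0.57 ± 0.11. Nr4a3 was higher in hippocampus by 2.50 ± 0.14 (adjusted p = 3.50e-19). No size is given for Ier2, whose striatal level was dim. Fos (0.00 ± 0.17), Junb (-0.23 ± 0.13) and Arc (-0.18 ± 0.14) did not pass in that comparison.

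Against brainstem, 6 members were higher in both forebrain tissues, where 40.5% of all genes were higher in hippocampus and 29.1% in striatum. The striatum minus brainstem differences were 5.89 ± 0.14 for Egr2, 4.58 ± 0.13 for Junb, 4.36 ± 0.14 for Nr4a3, 3.82 ± 0.14 for Arc, 3.76 ± 0.07 for Egr1 and 2.17 ± 0.10 for Nr4a1 (log2, limma adjusted p from 5.43e-36 to 1.28e-21). The hippocampus minus brainstem differences were 6.86 ± 0.14 for Nr4a3, 4.35 ± 0.13 for Junb, 3.63 ± 0.14 for Arc, 2.60 ± 0.07 for Egr1, 1.63 ± 0.14 for Egr2 and 1.36 ± 0.10 for Nr4a1. Egr2, Nr4a3 and Junb were dim in brainstem (medians 3.75, 4.20 and 4.67), so the sizes for these genes may be limited by the floor. Fos went the other way, at -0.74 ± 0.17 in each forebrain tissue minus brainstem (limma adjusted p = 0.000187 and 0.000166). Dusp1 was also lower in hippocampus than in brainstem (-0.40 ± 0.11). These 3 comparisons share arrays, and in whole tissue fewer cells of a type cannot be told apart from less RNA per cell.

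In brainstem Fos, Egr1 and Dusp1 differed among the 6 strains. For each, C3H HeJ and BalbC/J had the highest means and C57BL6/J the lowest. These were 3 of 9 members tested, and 23% of all genes differed (limma, 6-strain test, adjusted p under 0.05). The range of the strain means had a median of 0.80 over the 9 members and of 0.30 over all genes.

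Fos in brainstem stood at 10.52 in tested C3H HeJ mice and at 10.65 and 10.28 in untested ones. In BalbC/J it stood at 11.03 (tested), 10.83 and 10.21, and in C57BL6/J at 9.13 (tested), 9.01 and 9.60. Neither C3H HeJ nor BalbC/J overlapped C57BL6/J. Overlap between strains was not counted over all genes, so it is given here and below as a description. The difference from C57BL6/J was 1.23 ± 0.24 in C3H HeJ (2.35-fold, limma adjusted p = 0.00289) and 1.44 ± 0.24 in BalbC/J (2.72-fold, adjusted p = 0.00115). The other strains lay between, with means of 9.81 in C57BL10/J, 10.01 in C57BLKS/J and 9.87 in C57L/J, and none of the 9 members passed in any of them against C57BL6/J (0 of 9 each, against 2.75%, 2.74% and 3.28% of all genes, with 1, 2 and 3 members at an unadjusted limma p under 0.05).

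Egr1 in brainstem read 9.49 (tested), 9.79 and 9.91 in C3H HeJ, 9.71 (tested), 9.42 and 9.18 in BalbC/J, and 8.92 (tested), 8.73 and 8.81 in C57BL6/J. The C57BL6/J arrays again lay below all arrays of both strains. The differences were 0.91 ± 0.16 (limma adjusted p = 0.00185) and 0.62 ± 0.16 (adjusted p = 0.0246). BalbC/J did not stand apart from the other strains for Egr1. Its mean was 9.44, against 9.42 in C57BLKS/J (limma adjusted p = 0.965), 9.34 in C57L/J and 9.01 in C57BL10/J. Dusp1 read 9.49 (tested), 9.84 and 9.99 in C3H HeJ, 9.99 (tested), 9.93 and 9.50 in BalbC/J, and 8.94 (tested), 8.87 and 9.21 in C57BL6/J. No Dusp1 array of either strain fell within the C57BL6/J range, and the differences were 0.77 ± 0.18 (limma adjusted p = 0.00857) and 0.80 ± 0.18 (adjusted p = 0.00837). The other Dusp1 means were 9.39 in C57L/J, 9.30 in C57BL10/J and 9.23 in C57BLKS/J. C3H HeJ minus C57L/J did not pass (limma adjusted p = 0.190).

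**Figure D2:**
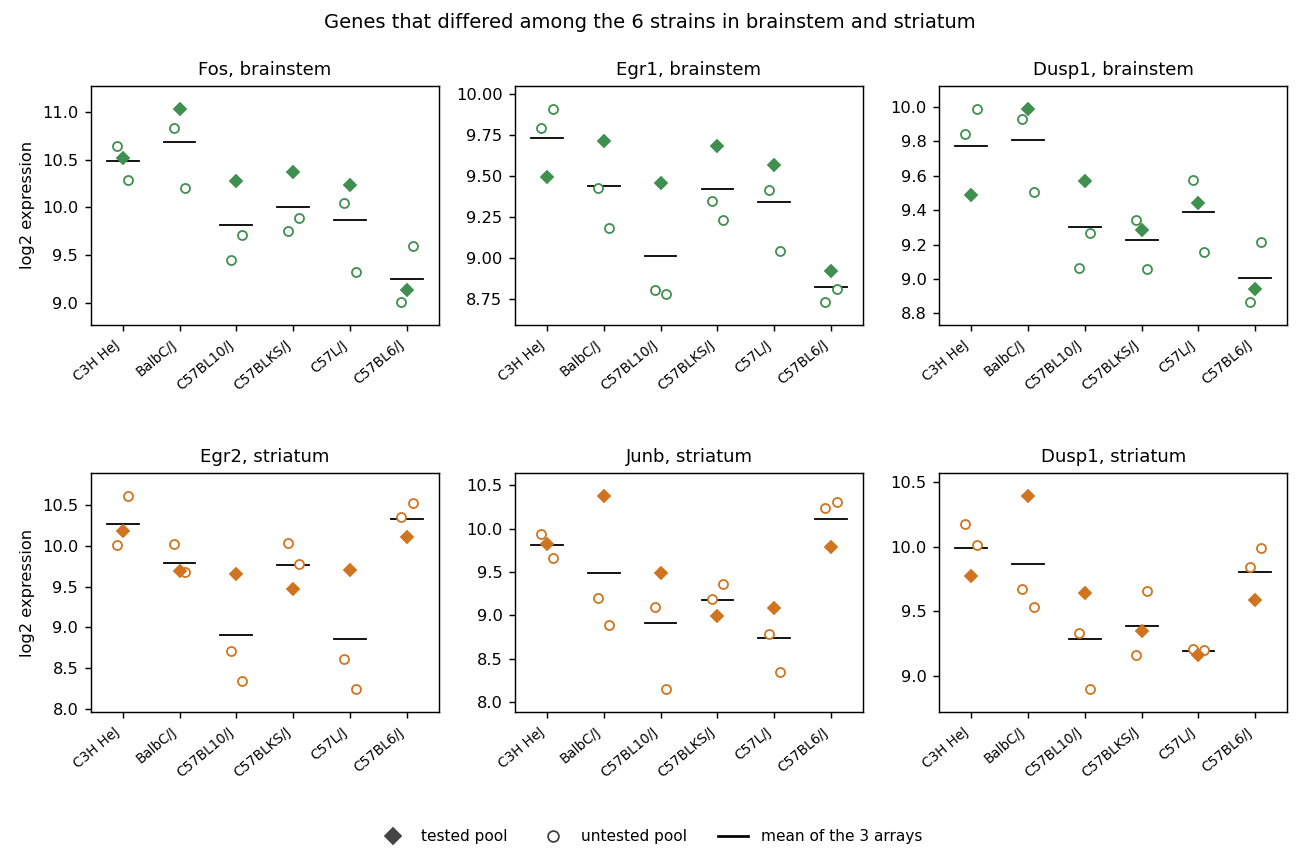
Log2 expression by strain of Fos, Egr1 and Dusp1 in brainstem and of Egr2, Junb and Dusp1 in striatum; filled diamonds are tested pools, open circles untested pools, black bars the mean of 3 arrays, and the vertical axes do not start at 0. In brainstem the 3 C57BL6/J arrays lay lowest on average for all 3 genes, and in striatum the untested C57BL10/J and C57L/J arrays lay lowest for Egr2.

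Over the 15 pairs of strains Fos passed in 4, Egr1 in 3 and Dusp1 in 2. The pairs without C57BL6/J were BalbC/J minus C57BL10/J (Fos) and BalbC/J minus C57L/J (Fos), where 9.32% and 8.5% of all genes passed, and C3H HeJ minus C57BL10/J (Egr1), where 12.4% did. Of the 18 fits that each left out 1 array, 4, 12 and 2 lost these calls (limma adjusted p up to 0.150, 0.230 and 0.0549). The counts of 3 of 9 members higher in C3H HeJ and 3 of 9 higher in BalbC/J than in C57BL6/J compare with 11.6% and 8.46% of all genes called higher in brainstem, and with 19.3% and 12.3% called in either direction. Both comparisons use the same C57BL6/J arrays. The median difference over the members was 0.77 and 0.62, and over all genes 0.02 and 0.04. C57BL6/J had the lowest brainstem mean of the 6 strains for 7 of the 9 members, the exceptions being Arc and Egr2. The share of all genes with C57BL6/J lowest was not counted. Without the C3H HeJ array that carried cerebellar markers, the C3H HeJ differences were 1.27 for Fos, 0.77 for Egr1 and 0.64 for Dusp1, and all 3 still passed. Leaving out the tested C3H HeJ array raised that strain's count from 3 to 7, and leaving out the second untested C3H HeJ array raised the BalbC/J count from 3 to 5. Leaving out either of these arrays also raised the counts of C57BLKS/J and of C57L/J minus C57BL6/J from 0 to 1. Without the tested BalbC/J array, Egr1 in BalbC/J no longer passed (0.56, limma adjusted p = 0.101), nor did it without the first untested BalbC/J array or any one C57BL6/J array. The 6-strain test of Dusp1 was lost without the tested BalbC/J, the tested C57BL6/J or the first untested C57BL6/J array (adjusted p up to 0.0529).

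Other markers moved with these strains. The 8 cerebellar markers averaged -0.99, -0.75 and -0.51 from the median on the C57BL6/J brainstem arrays, 0.37, -0.18 and 4.24 on the C3H HeJ arrays and 1.07, 1.20 and 0.16 on the BalbC/J arrays. The 6 stress-induced chaperone genes averaged 1.71 (tested), 0.89 and 0.38 on the BalbC/J arrays and -0.27 to 0.22 on those of C57BL6/J. All markers of both lists were above the filter in brainstem, and their part in the differences of Fos, Egr1 and Dusp1 was not tested. Among untested arrays alone, 2 per strain, C3H HeJ minus C57BL6/J kept Egr1 (1.08 ± 0.13, limma adjusted p = 0.00255) and Dusp1 (0.87 ± 0.20, adjusted p = 0.0356), Fos stood at 1.16 (adjusted p = 0.0526) and Junb passed as well (1.10 ± 0.17, adjusted p = 0.00801), against 8.77% of all genes. In BalbC/J no member passed among untested arrays, where 4.33% of all genes did (Fos 1.21, adjusted p = 0.0689).

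Of the remaining brainstem members, Junb, Egr2, Nr4a3 and Ier2 were dim, and Nr4a1 (8.41 to 9.44) passed in no pair of strains. Junb stood between 4.32 and 4.83 on all but 3 arrays, the exceptions being 5.75 and 5.10 on the untested C3H HeJ arrays and 6.26 on the tested BalbC/J array. Nr4a3 and Ier2 peaked together on the C3H HeJ array with cerebellar markers, at 6.32 and 6.66, against at most 4.98 and 6.00 elsewhere. Arc passed in a single pair of strains, BalbC/J minus C57BL10/J, where its arrays read 7.25 (tested), 7.38 and 7.09 against 7.0 (tested), 6.80 and 6.46, and 11 of the 18 fits that each left out 1 array lost this call (limma adjusted p up to 0.187).

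In striatum Egr2, Junb and Dusp1 differed among the strains, which made 3 of 8 members tested against 26.2% of all genes. The range of the strain means had a median of 1.15 over the 8 members and of 0.36 over all genes. Egr2 read 10.11 (tested), 10.35 and 10.52 in C57BL6/J and 10.18 (tested), 10.01 and 10.61 in C3H HeJ. It read 9.70 (tested), 8.62 and 8.25 in C57L/J, and 9.65 (tested), 8.72 and 8.35 in C57BL10/J. In C57L/J and C57BL10/J the untested arrays lay below the tested one, and all arrays of both strains lay below those of C57BL6/J. The 6-strain adjusted p of Egr2 was 0.0119, with strain means from 8.86 to 10.33.

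Junb in striatum read 9.79 (tested), 10.24 and 10.31 in C57BL6/J, against 9.08 (tested), 8.78 and 8.34 in C57L/J and 9.49 (tested), 9.09 and 8.15 in C57BL10/J. BalbC/J spanned the widest range, from 8.89 untested to 10.37 tested. Its 6-strain adjusted p was 0.0348. Dusp1, with strain means from 9.19 in C57L/J to 9.99 in C3H HeJ, had an adjusted p of 0.0398.

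Against C57BL6/J, C57L/J was lower for Egr2 (-1.47 ± 0.34, limma adjusted p = 0.0240) and for Junb (-1.38 ± 0.34, adjusted p = 0.0327), 2 of 8 members against 2.14% of all genes lower and 4.3% called. No member passed in another strain's striatum against C57BL6/J (0 of 8 in C3H HeJ, BalbC/J, C57BL10/J and C57BLKS/J, against 17.6%, 7.68%, 0.536% and 2.18% of all genes; 0, 0, 7 and 3 members had an unadjusted limma p under 0.05), although the median member difference was -1.14 in C57BL10/J, against 0.02 over all genes. The C57L/J calls rest on single arrays: leaving out either untested C57L/J array or either untested C57BL6/J array ended both, with Egr2 between -1.89 and -1.19 over all such fits. The untested C57L/J arrays also carried fewer striatal and more other markers. Their 6 striatal spiny neuron markers averaged -0.31 and -0.89, their 6 cortical neuron markers 0.85 and 1.77, and their 6 thalamic markers 0.81 and 0.88, while the tested C57L/J array had 0.10, -1.11 and 0.00, and all these markers passed the filter. Without both arrays, which leaves C57L/J with its tested array, Egr2 stood at -0.63 and Junb at -1.22. With 1 array of C57L/J the spread comes from the other strains, so no call is read from these values. Without them the 6-strain test called 1 member, Egr2 (adjusted p = 0.0242), and C57BL10/J minus C57BL6/J called 1.

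The striatal 6-strain count also fell from 3 to 1 when any one of 7 untested arrays was left out: both C3H HeJ, both C57L/J and both C57BL6/J arrays and the first of C57BLKS/J. Egr2 was the member that passed in every one of these fits (adjusted p at most 0.0316). Leaving out the tested C57BL10/J array raised the C57BL10/J minus C57BL6/J count from 0 to 2, and leaving out the tested C57L/J array raised it to 1. Of the 15 pairs of strains, Egr2 passed in 3, Junb and Dusp1 in 2 each and Nr4a3 in 1 (BalbC/J minus C57BL10/J), the high side always being C3H HeJ, BalbC/J or C57BL6/J and the low side C57BL10/J or C57L/J. In the pairs without C57BL6/J, C3H HeJ minus C57BL10/J, C3H HeJ minus C57L/J and BalbC/J minus C57BL10/J, 14.8%, 26.7% and 8.19% of all genes passed. Leaving out 1 array at a time ended the Nr4a3 call in 10 of 18 fits. Dusp1 was lost in 11 of 18 (C3H HeJ minus C57BL10/J) and 2 of 18 (C3H HeJ minus C57L/J), Junb in 4 of 18 (C3H HeJ minus C57L/J), and Egr2 in 2 of 18 (C3H HeJ minus C57BL10/J) and 0 of 18 (C3H HeJ minus C57L/J).

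In hippocampus Nr4a3 alone passed the 6-strain test, 1 of 9 members against 31.2% of all genes, with an adjusted p of 0.0163. The members' ranges of strain means had a median of 0.45, against 0.27 for all genes. Nr4a3 read 11.40 (tested), 11.17 and 11.28 in C3H HeJ and 10.99 (tested), 10.85 and 10.77 in C57L/J, so these strains did not overlap. Its strain means spanned 10.87 to 11.29. C3H HeJ minus C57BL6/J also passed for Nr4a3 (0.28 ± 0.09, limma adjusted p = 0.0421), 1 of 9 members against 18% of all genes, but 10 of the 18 fits that each left out 1 array lost it (adjusted p up to 0.196), among them each of the C3H HeJ arrays. In BalbC/J, C57BL10/J, C57BLKS/J and C57L/J 0 of 9 members passed against C57BL6/J, where 15.1%, 2.25%, 5.57% and 4.39% of all genes did, and 1, 3, 0 and 0 members had an unadjusted limma p under 0.05. Nr4a3 also passed in C3H HeJ, BalbC/J and C57BL10/J, each minus C57L/J, where 20.1%, 17.4% and 7.82% of all genes passed, and 0, 3 and 6 of the 18 fits with 1 array left out lost these calls. Leaving out the tested BalbC/J array raised that strain's count from 0 to 1.

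The strain means of each member were put in order within each tissue. C57BL6/J had the highest striatal mean for 6 of 8 members (Arc, Egr1, Egr2, Fos, Junb and Nr4a1) and the highest hippocampal mean for 4 of 9, yet the lowest brainstem mean for 7 of 9. C57BL10/J had the lowest mean for 5 of 9 members in hippocampus and 5 of 8 in striatum. The share of all genes with these strains at an extreme was not counted. The members also move together on the same arrays, so these counts are only a description. No neighbours in these orders passed a test of their difference: 0 of 130 neighbouring pairs passed in limma, and 3 had an unadjusted p under 0.05. Strain by tissue was tested for 8 members over 54 arrays, and only Egr1 passed (limma adjusted p = 0.0277, against 18.1% of all genes). Its means in C57BL6/J were 11.91, 13.30 and 8.82 in hippocampus, striatum and brainstem, and in C3H HeJ 11.92, 13.08 and 9.73. Without the tested BalbC/J striatum array 2 members passed.

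Strain differences were also measured without the tested mice. With the 2 untested arrays of each strain only, all 8 members tested in striatum passed the 6-strain test, against 23.7% of all genes, and 4 of 9 passed in hippocampus (Fos, Arc, Nr4a1 and Nr4a3), against 25.6%. In brainstem 2 of 9 passed (Junb and Egr1), against 8.65%. The members move together on the same arrays, so these counts and those below are not counts of independent genes. The median range of strain means in striatum was 1.68 over the members and 0.42 over all genes.

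C57BL10/J was among the strains that differed. Fos read 8.11 and 7.68 on its untested striatum arrays and 10.16 and 10.22 on those of C57BL6/J, a difference of -2.29 ± 0.38 (limma adjusted p = 0.0467). Arc read 10.01 and 9.47 against 11.35 and 11.54 (-1.70 ± 0.29, adjusted p = 0.0467), and Nr4a1 10.54 and 9.76 against 11.68 and 11.95 (-1.66 ± 0.22, adjusted p = 0.0109). The groups did not overlap for any of these genes, which with 2 arrays against 2 and genes already called adds nothing to the tests. Egr2, Junb and Egr1 were lower as well, at -1.90 ± 0.22, -1.66 ± 0.27 and -0.65 ± 0.09, so that 6 of 8 members passed where 0.227% of all genes were lower and 0.398% called. This count is only a description. The second untested C57BL10/J striatum array alone was the lowest of the 18 for 7 of 8 members. In hippocampus Fos (-1.48 ± 0.30), Arc (-1.38 ± 0.26) and Junb (-0.72 ± 0.15) passed, 3 of 9 members against 1.27% lower and 1.94% called. C57L/J was lower in striatum for 6 of 8 members among untested arrays (4.17% of all genes lower, 11.3% called), on the arrays whose markers are given above. BalbC/J was lower for Nr4a1 in hippocampus (-0.79 ± 0.14, 11.3% called) and Junb in striatum (-1.23 ± 0.27, 4.91% called). The 8 glucocorticoid-responsive genes, all above the filter, were high on the same untested C57BL10/J arrays, at 0.45 and 0.32 in hippocampus, 0.95 and 0.39 in striatum and 0.53 and 0.73 in brainstem, against -0.21, -0.02 and -0.22 on the tested ones. On the C57BL6/J arrays they averaged 0.52, 0.57 and -0.12 (tested) and 0.01 to 0.50 (untested). Their part in these differences was not tested.

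Prior testing was compared within strains, as the tested pool against the untested ones. Averaged over strains no member passed: 0 of 9, 0 of 8 and 0 of 9 in hippocampus, striatum and brainstem, as 0% of all genes did in each. With an unadjusted p under 0.05 limma found 1, 0 and 2 members, against 3.96%, 3.79% and 2.25% of all genes. Over all tissues together 0 of 8 passed and 2 had an unadjusted p under 0.05, Egr1 at 0.19 and Fos at 0.35 (tested minus untested), against 3.53% of all genes. That fit took arrays as independent although the tissues share mice, so its p-values are not exact. The median difference of the members was 0.12, 0.18 and 0.10 in the 3 tissues, and at most 0.01 over all genes.

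Within strains the tested pool was high in some and low in others. In BalbC/J hippocampus Fos read 10.72 on the tested array and 9.62 and 9.0 on the untested ones. The same gene read 9.93 against 8.51 and 8.32 in C57BL10/J, and 8.89 against 10.10 and 9.68 in C57BL6/J. So the tested array was the highest of its strain in BalbC/J and C57BL10/J and the lowest in C57BL6/J. In striatum the same held: 10.52 against 9.35 and 8.73 in BalbC/J, 9.61 against 8.11 and 7.68 in C57BL10/J, and 9.43 against 10.16 and 10.22 in C57BL6/J. Arc followed Fos, with tested minus untested differences of 1.34, 1.17 and -0.39 in hippocampus and 1.5, 1.18 and -0.55 in striatum for these strains in the same order. Nr4a1 did too, at 0.86, 0.43 and -0.46 in hippocampus and 0.62, 1.14 and -0.37 in striatum.

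**Figure D3:**
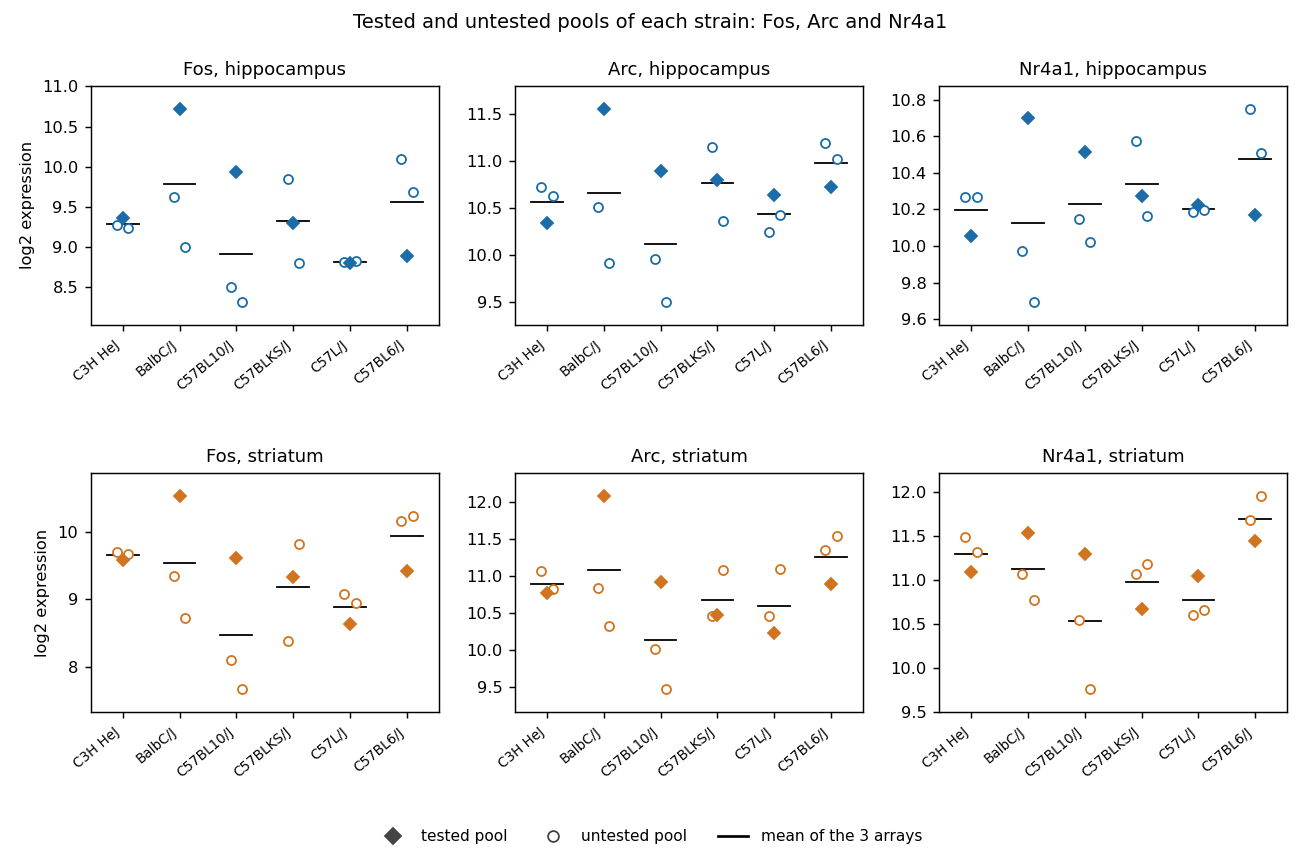
Log2 expression of Fos, Arc and Nr4a1 by strain in hippocampus (upper row) and striatum (lower row); filled diamonds are tested pools, open circles untested pools, black bars the mean of 3 arrays, and the vertical axes do not start at 0. The tested pool lay above both untested pools in BalbC/J and C57BL10/J and below both in C57BL6/J in all 6 panels.

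Counting members that passed the filter, the tested array was the highest of its strain's 3 for 8 of 9 (hippocampus), 7 of 8 (striatum) and 7 of 9 (brainstem) in BalbC/J, and for 9 of 9, 7 of 8 and 8 of 9 in C57BL10/J. Over all genes the tested array was highest for 36.9%, 38.8% and 27.6% in BalbC/J and for 26%, 41.9% and 45.6% in C57BL10/J. In C57BL6/J it was the lowest for 8 of 9 members in hippocampus and 8 of 8 in striatum, against 44.6% and 21.9% of all genes, and for 2 of 9 in brainstem. The members are not independent of each other, and each count rests on 1 tested array. In the other 3 strains the mean difference over the members lay between -0.32 and 0.29. The test that the testing difference varies by strain passed for 0 of 9, 0 of 8 and 0 of 9 members (smallest limma adjusted p 0.176, 0.164 and 0.363), against 0.227%, 0.187% and 0.0721% of all genes. With an unadjusted p under 0.05 there were 7 of 9, 8 of 8 and 2 of 9 members, against 14.1%, 13% and 3.4% of all genes, so the variation by strain is described here and did not pass. That test called 1 member in hippocampus without the second untested C57BL6/J array, and in brainstem 3 when the first untested C3H HeJ array was left out and 1 when the second was. A difference of testing between tissues passed for 0 of 8 members, as for 0% of all genes.

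Most members moved together from array to array in hippocampus and striatum, and fewer did in brainstem (heat map of deviations by array). The tested BalbC/J array had the highest mean deviation of the 18 arrays in each tissue, at 0.77, 0.71 and 0.58 above the medians in hippocampus, striatum and brainstem, and it was the highest array for 6 of 9, 6 of 8 and 3 of 9 members. The same arrays had the highest mean of the 6 stress-induced chaperone genes, at 0.93, 2.15 and 1.71, and a link between them was not tested. The lowest means were those of the second untested C57BL10/J array in hippocampus (-0.43) and striatum (-1.14, lowest for 7 of 8 members), and of the first untested C57BL6/J array in brainstem (-0.46, lowest for 6 of 9).

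**Figure D4:**
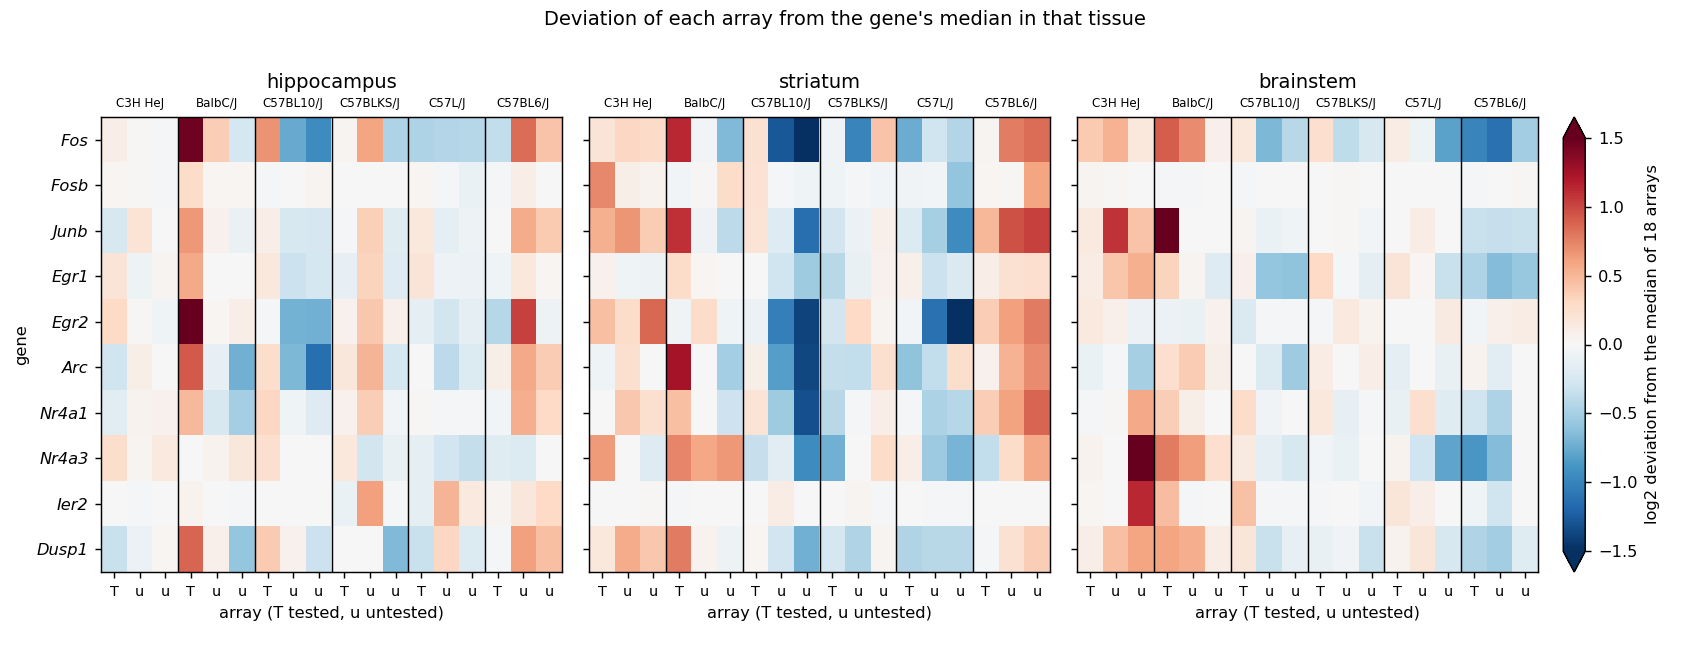
Log2 deviation of each array (columns, grouped by strain, T tested and u untested) from the gene's median over the 18 arrays of the tissue, for the 10 genes (rows); red is above and blue below, and colours saturate at 1.5. The tested BalbC/J column was red for most genes in all 3 tissues, and the untested C57BL10/J columns were blue for most genes in striatum and for several in hippocampus.

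This spread within a strain, tested pool included, was large for most members. Its SD thus holds any difference between tested and untested pools. The within-strain SD of Fos was 0.60 in hippocampus, 0.66 in striatum and 0.37 in brainstem, against medians of 0.11, 0.15 and 0.12 over all genes tested. That placed Fos at the 99.6th, 98.5th and 95.6th percentile. Egr2 (99.5th), Arc (99.3rd) and Dusp1 (98.8th) were as high in hippocampus. Nr4a3 was the exception there, at the 65.3rd percentile, while it reached the 95.5th in striatum and the 98.7th in brainstem. Egr1 had an SD of 0.23, 0.19 and 0.26, and Egr2 in brainstem, at its floor, lay at the 34.1st percentile.

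After each strain and tissue mean was removed, Nr4a1 tracked the mean of the other members most closely, with a Pearson r of 0.91 over 54 arrays. Dusp1 (0.82), Fos (0.80), Egr1 (0.78), Arc (0.70) and Junb (0.70) followed, and Egr2 had 0.54. Nr4a3 (0.32), Ier2 (0.30) and Fosb (0.23) tracked it weakly, Ier2 and Fosb being dim. The closest pair was Fos with Arc (r = 0.86), then Fos with Dusp1 (0.82) and Dusp1 with Nr4a1 (0.79). By tissue, the r of Fos with the others was 0.96, 0.74 and 0.59 in hippocampus, striatum and brainstem. For Arc it was 0.91, 0.72 and 0.03, and for Nr4a3 -0.12, 0.54 and 0.50. Egr2 had 0.83, 0.50 and -0.74, the last among brainstem values just above the filter, and the dim Fosb had -0.56 in brainstem. Testing was not removed, so any difference between tested and untested pools is part of these correlations. The 3 arrays of a mean share that mean, and arrays of different tissues share mice, so these correlations are descriptions.

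**Figure D5:**
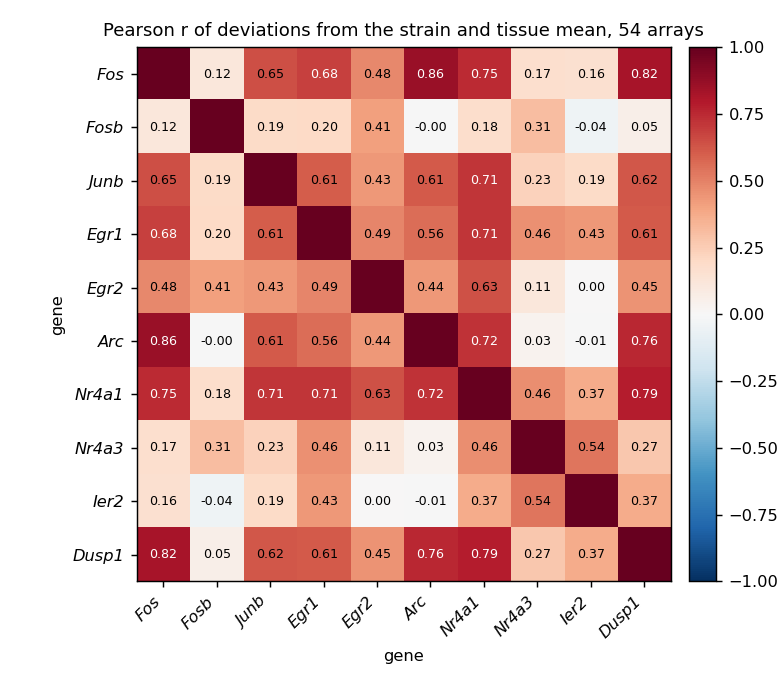
Pearson r between each pair of the 10 genes over 54 arrays, after the mean of each strain and tissue was removed; colour runs from -1 (blue) to 1 (red) and each cell prints its r. Fos, Junb, Egr1, Arc, Nr4a1 and Dusp1 form a block of r from 0.56 to 0.86, and Fosb, Nr4a3 and Ier2 lie outside it.

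Among 11598 other genes measured in all tissues, those closest to the mean of the members within strains were Siah2, a ubiquitin ligase (r = 0.78 over 54 arrays), Tiparp, an ADP-ribosyltransferase (0.75), Plekha8 (0.67), Edrf1 (0.66) and Tob2, an antiproliferative factor (0.64). Siah2 had an r of 0.80, 0.79 and 0.80 in hippocampus, striatum and brainstem, while Edrf1 had 0.84, 0.72 and 0.12. These genes were picked as the highest of 11598 on the same arrays, so the values by tissue are no separate check. Over the 18 strain means, with the tissue mean removed, the closest were Rbm12b1 (r = 0.89), Nck1 (0.89), Spty2d1 (0.84), Acadm (0.84) and Kti12 (0.84). No gene was in both lists of 5.

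Other genes of the same response were read from 4 lists. Among other activity-regulated transcription factor genes (19 listed, 19 on the array), 5 of 15 tested passed the 6-strain test (hippocampus), 2 of 14 (striatum) and 5 of 14 (brainstem), against the 31.2%, 26.2% and 23% of all genes. Fosl2, another AP-1 gene, led each tissue, with strain means spanning 0.50, 1.33 and 0.90 (limma adjusted p = 0.00125, 0.0191 and 0.0133). In brainstem C3H HeJ minus C57BL6/J was higher for 6 of 14 (11.6% of all genes) and lower for none (7.71%), among them Nfil3 (0.52 ± 0.09), Jund (0.38 ± 0.08), Fosl2 (0.90 ± 0.21) and Nr4a2 (0.83 ± 0.21), a close relative of Nr4a1, with a list median of 0.36. The C3H HeJ side includes the brainstem array with cerebellar markers, and no gene of the 4 lists was refitted without it. BalbC/J minus C57BL6/J was higher for 2 of 14 (8.46% of all genes), Fosl2 (0.90 ± 0.21) and Nr4a2 (0.78 ± 0.21). In hippocampus 3 of 15 were lower in C3H HeJ (10.4% of all genes), led by the clock gene Per1 (-0.51 ± 0.10) and by Klf2 (-0.67 ± 0.17).

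The other activity-regulated signalling and effector genes (20 listed, 19 on the array) passed the 6-strain test for 6 of 18 (hippocampus), 6 of 17 (striatum) and 2 of 16 (brainstem), against the same 31.2%, 26.2% and 23% of all genes. They were led by the MAP kinase phosphatases Dusp14 (range 0.60) and Dusp4 (0.64) in hippocampus, by Rnd3 (1.36) and Rgs2 (0.99), a regulator of G protein signalling, in striatum, and by Ier3 (0.40) and Ccn2 (0.83) in brainstem. In hippocampus BalbC/J minus C57BL6/J was lower for Dusp4 (-0.64 ± 0.10), Dusp14 (-0.54 ± 0.11) and Dusp5 (-0.37 ± 0.08). In that comparison 8.76% of all genes were lower and 15.1% were called, and the list's own counts by direction are not given. Tiparp, whose level followed the members on the arrays, was lower in C57L/J striatum than in C57BL6/J (-0.99, limma adjusted p = 0.0285), on the arrays with fewer striatal markers. Of all genes 2.14% were lower in that comparison.

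Of activity-regulated secreted protein genes (7 listed, 7 on the array), 5 of 7 passed (hippocampus), 2 of 6 (striatum) and 1 of 6 (brainstem), where 31.2%, 26.2% and 23% of all genes did. Bdnf, the neurotrophin, led hippocampus (range 1.32, limma adjusted p = 5.90e-05) and brainstem (0.75, adjusted p = 0.0396), and Vgf led striatum (0.56, adjusted p = 0.00141). In hippocampus C3H HeJ minus C57BL6/J was -1.32 ± 0.14 for Bdnf, and so lower, as it was for Vgf (-0.39 ± 0.05) and Nptx2 (-0.37 ± 0.10). Of all genes 10.4% were lower there and 18% were called, and the list's own counts by direction are not given.

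Of transcription factors and kinases upstream of immediate early genes (15 listed, 13 on the array), 4 of 13 passed (hippocampus), 0 of 13 (striatum) and 2 of 13 (brainstem), beside 31.2%, 26.2% and 23% of all genes. They were Camk4 (range 0.45), a calcium-activated kinase, Crtc1 (0.53), a CREB coactivator, Elk4 (0.47) and Mrtfa (0.31) in hippocampus, and Mrtfb (0.28) and Mef2d (0.65) in brainstem. In C3H HeJ brainstem Mef2d was 0.65 ± 0.13 higher and Mrtfb 0.23 ± 0.06 higher than in C57BL6/J. There 11.6% of all genes were higher and 19.3% were called, and the list's own counts by direction are not given. These differences include the C3H HeJ array with cerebellar markers and were not refitted without it. Srf, which encodes serum response factor, did not pass among strains in any tissue.

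Averaged over strains, prior testing called no gene of the 4 lists in any tissue, as it called 0% of all genes. Within single strains a few passed. Klf10 was lower on the tested C57BL6/J hippocampus array (-0.69 ± 0.10, limma adjusted p = 0.0256, against 0.52% of all genes). In BalbC/J striatum Jun was higher (0.95 ± 0.15, adjusted p = 0.0284) and Homer1 lower (-0.63 ± 0.08, adjusted p = 0.0118), against 1.19% of all genes. In C57L/J striatum, whose untested arrays carried fewer striatal markers, Bdnf and Jun were lower and Rgs2, Egr3 and Camk4 higher, against 1.21%. Each rests on 1 tested array, which is assumed to vary like the others, and the spread comes from the untested arrays of all strains. The smallest p belonged to Dusp5 in hippocampus (0.18 ± 0.05), Rnd3 in striatum (0.24 ± 0.12) and Tiparp in brainstem (0.16 ± 0.05) among signalling genes, and to Nfil3 (0.11), Klf2 (0.19) and Klf6 (0.14) among transcription factors in the same order of tissues (limma adjusted p at least 0.986). Variation of testing by strain called none either, with Klf10 in hippocampus (limma adjusted p = 0.0512) and Jun in striatum (adjusted p = 0.0624) nearest. Strain by tissue passed for 3 of 13 other activity-regulated transcription factor genes (Per1 and Fosl2 first), 5 of 15 other activity-regulated signalling and effector genes (Rgs2 and Rnd3 first), 2 of 5 activity-regulated secreted protein genes (Vgf and Bdnf) and 4 of 13 transcription factors and kinases upstream of immediate early genes (Mrtfb and Mef2d first), against 18.1% of all genes.

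Between striatum and brainstem, 7 of 15 other transcription factor genes, 11 of 18 signalling and effector genes, 3 of 7 secreted protein genes and 11 of 13 upstream genes were higher in striatum, against 29.1% of all genes, and 7, 5, 4 and 2 were lower, against 60.2%. The tissue fit took genes that passed the filter in at least 1 tissue. Some list genes thus entered only through a tissue where they are high, and no count over genes passing in both was made. Egr3, a relative of Egr1, was higher in hippocampus and in striatum than in brainstem. No size is given for it, since its brainstem level was not read against the filter. Jun was 2.32 ± 0.08 higher in hippocampus than in striatum. Mrtfb was 2.47 ± 0.03 higher in hippocampus and 2.65 ± 0.03 higher in striatum than in brainstem, and Srf 1.93 ± 0.04 and 1.68 ± 0.04 higher. Of the other activity-regulated transcription factor genes, 14 of 15 passed in each of the 3 tissue comparisons.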

How the data were processed

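The deposited values were log2 expression per probe set. The submitters' processing notes name R 2.6.1 with affy 1.16.0, RMA, GCRMA 2.10.0 and limma 2.12.0, without saying which made these values or whether tissues were normalized together. No source used here gives a batch or scan date. Of 45101 probe sets, 34945 had 1 symbol, 932 several and 9160 none, and 64 were controls. Each gene was its brightest probe set. limma 3.58.1 (R 4.3.3, intensity trend, two-sided) fitted strain and testing within each tissue, or both within tissue over 54 arrays. Genes exceeding the 40th percentile on 3 or more arrays entered the tests (hippocampus 12317, striatum 12320, brainstem 12484). A call means that p, after Benjamini-Hochberg adjustment across all these genes, was under 0.05. P-values measure the spread between pools, and 3 arrays a group limit precision. The members, the gene lists and the naming rule (all members, the smallest p of each list) were chosen with earlier results of these data known; which of those list genes to print was decided with their values in view. The growth protocol lists 5 of the 6 strains, without C57BL10/J. Alternatives covered normalization, filter, probe set, trend, testing term, block and left-out arrays. The scripts were tested on simulated data. Replicate numbers did not pair arrays across tissues (closing section).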

Additional observations from a re-analysis of the deposited data

Results flagged for a closer look

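Of the 8 members tested, 1, Egr1, had strain differences that varied by tissue (limma strain by tissue adjusted p = 0.0277), a difference between groups tested directly. Of all genes 18.1% passed that test, and 2 members did without the tested BalbC/J striatum array. The C57BL6/J mean was the highest of the 6 strains in striatum (13.30) and the lowest in brainstem (8.82). Neither place was set off from its neighbour. C57BL6/J lay 0.09 ± 0.14 above BalbC/J in striatum (limma adjusted p = 0.849). It lay 0.19 ± 0.16 below C57BL10/J in brainstem (limma adjusted p = 0.586). Egr1 passed in 0 of 15 pairs of strains in striatum. The tissues share mice, so this p is not exact.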

How the results depend on the processing

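Of 718 alternative counts of members called, 661 stayed within 1.5 times the main count and 57 moved; of 1089 values of single members, 928 kept direction and call, 161 lost the call and 0 reversed. The cause was not tested unless the setting itself removes arrays. With only untested arrays the counts were 4 (6 strains), 0 (C3H HeJ minus C57BL6/J), 1 (BalbC/J minus C57BL6/J) and 3 (C57BL10/J minus C57BL6/J) in hippocampus, 8 (6 strains), 1 (BalbC/J), 6 (C57BL10/J) and 6 (C57L/J) in striatum, and 0 (BalbC/J) in brainstem. With arrays centred on their medians the 6-strain count was 0 in hippocampus and 1 in striatum, and with the next brightest probe set or the mean of probe sets it was 0 in hippocampus. C3H HeJ minus C57BL6/J in hippocampus was 0 with median centring, no filter, the next brightest probe set, the mean of probe sets, no trend or no testing term. C57L/J minus C57BL6/J in striatum was 1 with the next brightest probe set. Without both untested C57L/J striatum arrays, a choice made after seeing the data, the counts were 1 (6 strains), 1 (C57BL10/J) and 0 (C57L/J). Leaving out 1 array at a time gave 1 to 4 (6 strains, striatum), 2 to 4 (6 strains, brainstem), 0 to 1 (C3H HeJ, hippocampus), 0 to 1 (BalbC/J, hippocampus), 0 to 2 (C57BL10/J, striatum), 0 to 3 (C57L/J, striatum), 3 to 7 (C3H HeJ, brainstem), 2 to 5 (BalbC/J, brainstem), 0 to 1 (C57BLKS/J and C57L/J, brainstem), 0 to 1 and 0 to 3 (testing by strain, hippocampus and brainstem) and 1 to 2 (strain by tissue). Same-numbered arrays of different tissues correlated with medians of 0.01, 0.11 and -0.01, over 0.1 in 4, 10 and 2 of 18 cases, so the numbers were not taken as pairs. With replicate number as a block the 6-strain counts were 1, 2 and 3 in hippocampus, striatum and brainstem.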

Other observations

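The probe sets of 2 members disagreed in brightness. The brightest Nr4a3 probe set averaged 11.11 in hippocampus and 8.61 in striatum, while the other 2 averaged 1.80 and 1.83 in hippocampus and 2.44 and 1.87 in striatum. The 2 probe sets of Egr2 gave the same order of tissues at different heights, at 9.65 and 8.96 in striatum.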
